A study of Mus musculus with 9 samples.

Results

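9 genes that mark GABAergic neurons, the inhibitory neurons that release gamma-aminobutyric acid (GABA), were followed across 9 mouse libraries. They are Gad1, Gad2, Slc32a1, Dlx1, Dlx6os1, Lhx6, Erbb4, Pvalb and Prkcd, found by matching these symbols to the Ensembl identifiers of the deposited count table, 9 of 54838 identifiers. Together they held 455 of 2199270 counts, or 0.0207%. The cells were taken by laser capture microdissection from paraformaldehyde-fixed frozen mouse tissue, and libraries were made with Smart-3SEQ, which reads the 3′ ends of polyadenylated RNA. The libraries form 3 groups of 3, whose labels give mCHerry, c-fos or overlap as genotype. The series title concerns projections of basolateral amygdala neurons marked by Fgf2 or Notch2 to the ventromedial hypothalamus (VMH) and dorsomedial striatum (DMS), read in visceral pain and itch. The design text speaks of cells carrying a CRD label, a His label or both. Neither says which of those labels is mCHerry and which is c-fos, so the groups keep their label names. The sources used here do not give the strain, age, treatment, time, number of cells or number of animals. No library is tied to an animal, so p-values reflect the spread among these libraries alone, which may be technical, and are too small if libraries of a group share an animal.

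GABA is made from glutamate by the glutamic acid decarboxylases encoded by Gad1 and Gad2, and is loaded into synaptic vesicles by the transporter encoded by Slc32a1. During development homeodomain transcription factors of the Dlx family, and Lhx6 in cells of the medial ganglionic eminence, direct cells to an inhibitory fate, and Dlx6os1 is a long non-coding RNA of the Dlx5/Dlx6 locus that adult forebrain inhibitory neurons retain. In the amygdala, the basolateral nucleus is mostly excitatory with scattered interneurons, among them cells with parvalbumin (Pvalb), whereas the central nucleus and the intercalated cell clusters are mostly inhibitory and a population of the central nucleus carries protein kinase C delta (Prkcd).

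The sequences just before the transcription starts of 3 members are shown because they belong to the genes whose level in every c-fos library was above that in every mCHerry library (Slc32a1 and Dlx1), and to the only member whose window held an AP-1 motif, the element bound by complexes that contain the c-fos protein (Lhx6). They are RefSeq sequences of build GRCm38.p6, which differs from the mm9 build named in the submitters' processing notes, and each covers the 250 bases before a start. The Slc32a1 window is chr2:158610508-158610757 on the plus strand, the Dlx1 window chr2:71529195-71529444 on the plus strand, and the Lhx6 window chr2:36105409-36105658 on the minus strand. All are written 5′ to 3′, with the motif in capitals.
Slc32a1: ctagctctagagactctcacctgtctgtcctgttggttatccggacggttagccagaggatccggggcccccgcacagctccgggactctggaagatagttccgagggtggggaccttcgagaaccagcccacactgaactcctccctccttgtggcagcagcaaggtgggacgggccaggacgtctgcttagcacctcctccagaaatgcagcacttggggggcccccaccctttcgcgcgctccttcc
Dlx1: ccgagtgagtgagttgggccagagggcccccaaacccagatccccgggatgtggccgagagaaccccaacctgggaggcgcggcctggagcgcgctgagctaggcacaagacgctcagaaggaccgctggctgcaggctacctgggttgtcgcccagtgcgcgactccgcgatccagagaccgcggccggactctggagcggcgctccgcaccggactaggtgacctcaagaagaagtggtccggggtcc
Lhx6: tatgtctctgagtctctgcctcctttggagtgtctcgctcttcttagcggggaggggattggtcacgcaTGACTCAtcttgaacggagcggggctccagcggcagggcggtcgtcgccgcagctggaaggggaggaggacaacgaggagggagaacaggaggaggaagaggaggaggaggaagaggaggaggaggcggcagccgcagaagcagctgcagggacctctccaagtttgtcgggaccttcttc
In the 14 windows found for the 9 genes, the AP-1 motif TGANTCA and the homeodomain core TAATTA were searched. Each equals its own reverse complement and so covers both strands, and no matches of the 2 motifs fell in the same window. The only AP-1 match began 181 bases before the Lhx6 start. TAATTA matched only in the windows of Dlx6os1, which are on chromosome 6. AP-1 was present in 6.75% of all 32851 windows of this length and TAATTA in 4.84%. The windows shown are rich in G and C, with 62.4% for Slc32a1, 68% for Dlx1 and 61.6% for Lhx6 against a median of 52.4% over all windows. A match is a description of letters, not of binding.

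Total counts ran from 90091 to 429317 per library. With counts scaled to one library size (CPM), 3 counts, taken as the floor, are worth 33.3 CPM in overlap 1, the shallowest library, and 6.99 CPM in mCHerry 2, the deepest. Floors and intervals cover counting error only, and it is not stated whether molecular identifiers were collapsed. The labels' cell type, spermatocytes, had 3 of 18 listed markers at 0 in every library, Sycp1, Spo11 and Pgk2, and none of the 18 passed the filter on low counts. Their summed level was 94.2 to 902 CPM, highest in mCHerry 3. The 14 listed genes shared by most neurons all had counts, and their sum was 6416 to 7079 CPM in mCHerry, 4191 to 5047 in c-fos and, for overlap, 3291 to 4553. Insulin transcripts set mCHerry 3 and overlap 1 apart, at 12753 and 19410 CPM against 238 to 925 in the other 7 libraries. Levels below are CPM after TMM scaling unless another scale is named. Errors are SD over 3 libraries for levels and standard errors (SE) of the fit for log2 fold changes.

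None of the 9 genes passed the test for a difference between any groups, and the data on them are sparse. Not passing does not show that a gene is unchanged. In simulated data with the spread of these libraries the fit recovered 3 of 49 genes changed 8-fold. Counts of the 9 genes per library were 31, 58 and 15 in mCHerry, 54, 87 and 80 in c-fos, and 28, 48 and 54 in overlap. Only mCHerry 2 held counts of all 9, and only Prkcd was counted in all 9 libraries. Slc32a1 and Prkcd alone passed the filter and were tested among 7959 genes, and the other 7 were read from the fit with no filter over 26012 genes. Adjusted p-values of the members (edgeR's quasi-likelihood test, Benjamini-Hochberg adjustment) ran from 0.658 to 0.993 for c-fos against mCHerry, where 0% of genes were called with the filter and 0.992% without it. They ran from 0.541 to 0.685 for overlap against mCHerry, where 0.0251% and 1.32% were called. Between overlap and c-fos the range was 0.701 to 0.987, with 0% and 0.169% called. For c-fos and overlap together against mCHerry, Slc32a1 had a log2 fold change of 2.24 ± 1.36 (SE) and Prkcd one of -0.77 ± 0.84 (adjusted p = 0.52 and 0.781, edgeR), with 0% and 1.9% of genes called. At an unadjusted p under 0.05 the filtered edgeR fit held 634 genes for c-fos against mCHerry, or 7.97%, beside 1117 genes, or 14%, for overlap against mCHerry and 407 genes for overlap against c-fos, or 5.11%, and DESeq2 called 3, 180 and 6 genes after adjustment. In the fit with no filter 2 of the 9 members were under that unadjusted threshold for c-fos against mCHerry, Slc32a1 and Dlx1, where 6.54% of all genes were. The count was 0 members for overlap against mCHerry beside 10.3%, and 1 member, Gad2, for overlap against c-fos beside 5.28%. Fitted changes with no filter were positive for 6 of the 9 members for c-fos against mCHerry, 5 for overlap against mCHerry and 3 for overlap against c-fos, where 51.1%, 43.9% and 41.9% of all genes were positive. Their medians were 1.21, 1.60 and -1.18 on the log2 scale beside 0.05, 0 and -0.04 over all genes, and depend on the prior count for members with a group at or near 0.

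**Figure D1:**
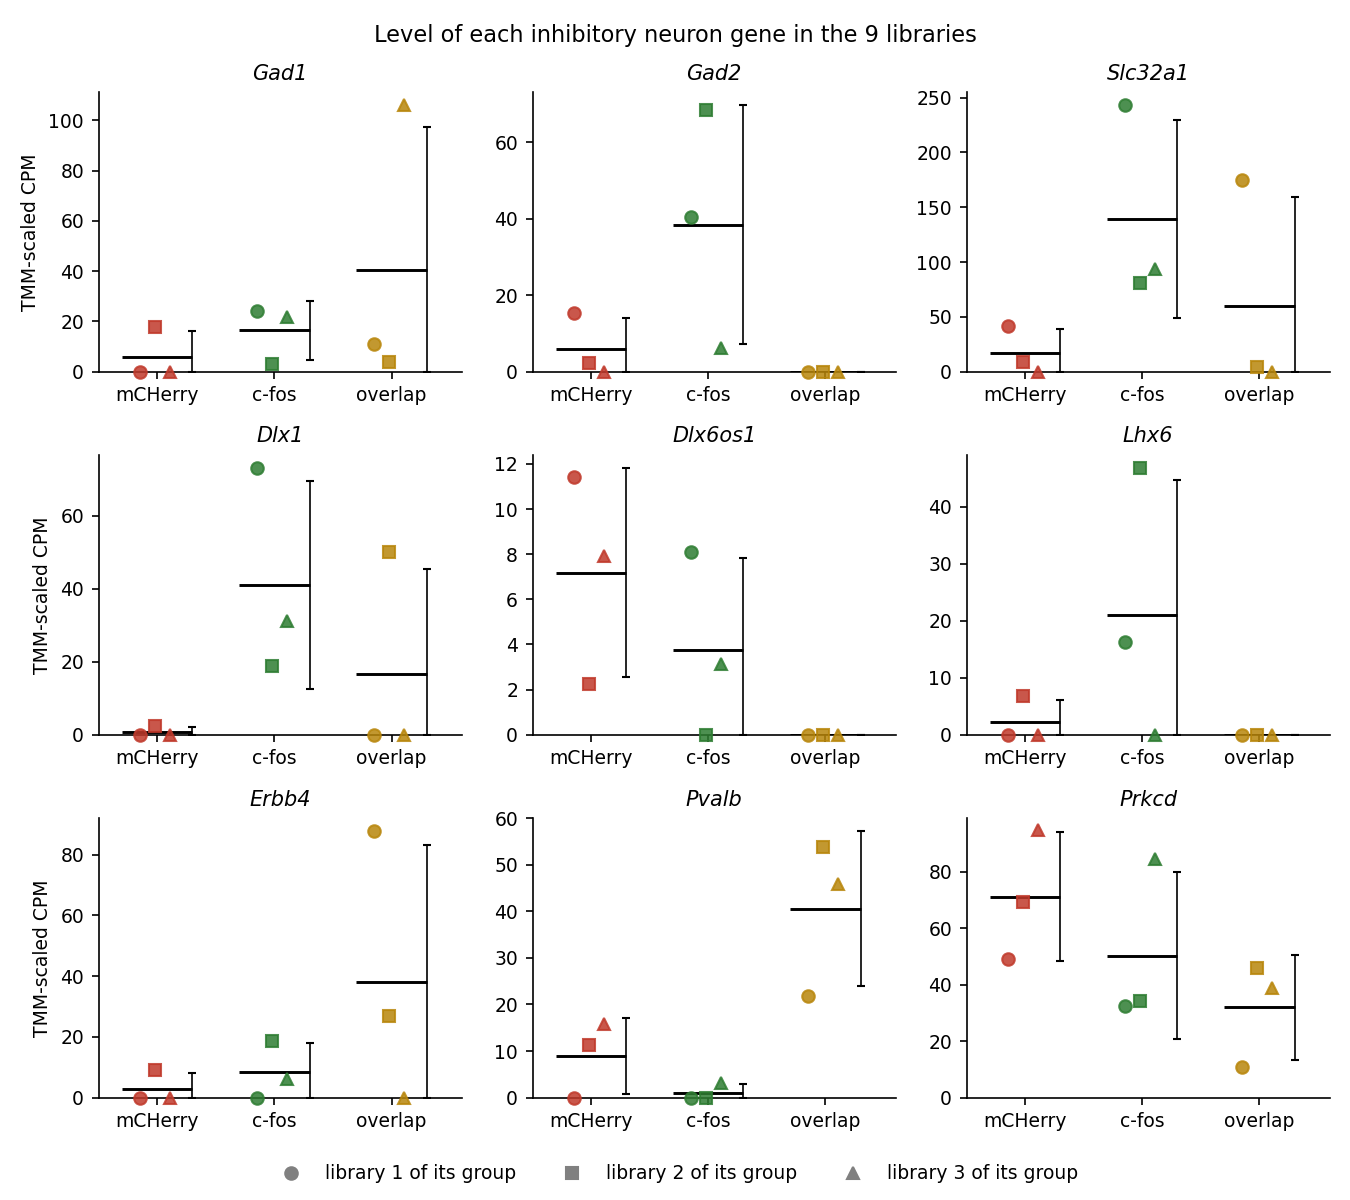
Level of each of the 9 genes in every library (y axis, TMM-scaled CPM, its range set for each gene) by group (x axis). Points are libraries, horizontal lines group means, and vertical bars SD over 3 libraries with the lower end cut at 0. All 3 c-fos libraries lie above all 3 mCHerry libraries for Slc32a1 and Dlx1, and all 3 overlap libraries lie above the other 6 for Pvalb.

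Slc32a1 (ENSMUSG00000037771), the vesicular GABA transporter, stood above all mCHerry libraries in each c-fos library, but the difference did not pass the test. It had 11, 4 and 0 counts in the mCHerry libraries, 30, 26 and 30 in c-fos, and 16, 1 and 0 in overlap. Levels were 41.7, 8.97 and 0 CPM in mCHerry, 243, 80.9 and 93.7 in c-fos, and 175, 3.84 and 0 in overlap. The c-fos libraries did not overlap mCHerry, while overlap 1 stood among the c-fos libraries and overlap 2 and 3 were at or under a floor of 3 counts. Group means were 16.9 ± 22.0, 139 ± 90.2 and 59.8 ± 100 CPM. The log2 fold change of c-fos over mCHerry was 2.92 ± 1.48 (SE), with an unadjusted p of 0.0668 and an adjusted p of 0.664 in edgeR's quasi-likelihood test. Leaving out 1 library gave 2.26 to 4.41, the highest without mCHerry 1. With no filter it was 2.93 with an unadjusted p of 0.0169 and an adjusted p of 0.571. Pooled over libraries, 86 counts against 15 gave a ratio of 6.27 with a 95% counting interval of 3.6 to 11.7, which leaves out the spread between libraries. For overlap against mCHerry the log2 fold change was 1.57 ± 1.49 (adjusted p = 0.685), and it was -2.99 (adjusted p = 0.433) without overlap 1. In bulk samples, fewer cells of a type and less RNA per cell cannot be told apart.

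Gad1 (ENSMUSG00000070880) and Gad2 (ENSMUSG00000026787), the decarboxylases, were counted mainly in different libraries. Gad1 had 0, 8 and 0 counts in mCHerry, 3, 1 and 7 in c-fos, and 1, 1 and 30 in overlap. Overlap 3 alone held 58.8% of its counts, and the groups overlapped in all comparisons. Mean Gad1 levels were 5.98 ± 10.4, 16.4 ± 11.6 and 40.2 ± 56.9 CPM. Its log2 fold change was 1.18 ± 1.90 for c-fos and 2.51 ± 1.94 for overlap against mCHerry (adjusted p = 0.891 and 0.592, edgeR with no filter). Both moved with single libraries. Without mCHerry 2, which held all 8 mCHerry counts, they were 4.89 and 6.21, values that depend on the prior count because mCHerry is then at 0. Without overlap 3 the change of overlap against mCHerry was 0.02. Without overlap 3, the change of overlap against c-fos went from 1.33 to -1.18 (adjusted p = 0.832 and 0.957).

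Gad2 had 4, 1 and 0 counts in mCHerry, 5, 22 and 2 in c-fos, and none in overlap. Every c-fos library was thus above every overlap library, while c-fos 3 fell within the range of mCHerry, and c-fos 2 held 64.7% of the gene's counts. Mean levels were 5.81 ± 8.19 CPM in mCHerry and 38.4 ± 31.2 in c-fos. The pooled ratio of c-fos to mCHerry was 6.34 with a counting interval of 2.43 to 21. Set at the floor of 3 counts over the group, overlap would be 8.03-fold lower than c-fos and 1.27-fold lower than mCHerry. These folds take the c-fos and mCHerry counts as exact, and with 5 counts in mCHerry the second does not bound a difference. The edgeR test with no filter gave an adjusted p of 0.701 for overlap against c-fos (unadjusted 0.0234). Overlap 3, the library with most Gad1, had no Gad2 and no Slc32a1 count, and c-fos 2, the library with most Gad2, had 1 Gad1 count. The summed level of Gad1, Gad2 and Slc32a1 was 56.9, 29.2 and 0 CPM in mCHerry, 308, 153 and 122 in c-fos, and 186, 7.69 and 106 in overlap, so c-fos did not overlap mCHerry and overlap spanned both.

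Among the lineage genes, Dlx1 was the one in which all c-fos libraries stood above all mCHerry libraries. Dlx1 (ENSMUSG00000041911), a homeodomain factor of inhibitory neurons, had 0, 1 and 0 counts in mCHerry, 9, 6 and 10 in c-fos, and 0, 13 and 0 in overlap. All c-fos libraries held it, and of the other 6 only overlap 2 held more than 1 count. Mean levels were 0.748 ± 1.29, 41.0 ± 28.4 and 16.7 ± 28.8 CPM. With 1 count in mCHerry, the pooled ratio of c-fos to mCHerry was 27.3 with a counting interval of 4.47 to 1122. The edgeR test with no filter gave an unadjusted p of 0.0386 and an adjusted p of 0.658. All 13 overlap counts came from overlap 2. Without that library the log2 fold change of overlap against mCHerry was -1.59 (adjusted p = 0.852, edgeR with no filter). That value compares 0 counts with 1 and depends on the prior count.

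Dlx1as, transcribed from the opposite strand over Dlx1, had the other order. It had 0, 21 and 6 counts in mCHerry, 0, 0 and 2 in c-fos, and none in overlap. The pooled ratio of c-fos to mCHerry was 0.081 with a counting interval of 0.00933 to 0.322, and mCHerry 2 held most of the counts. Whether the counting used strand is not stated, so the reads of these overlapping genes cannot be told apart with certainty.

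Lhx6 (ENSMUSG00000026890), a LIM-homeodomain factor of interneurons from the medial ganglionic eminence, had 0, 3 and 0 counts in mCHerry, 2, 15 and 0 in c-fos, and none in overlap. It rested on c-fos 2, which held 75% of its counts, and c-fos and mCHerry overlapped. The pooled ratio of c-fos to mCHerry was 6.19 with a counting interval of 1.79 to 33. Set at 3 counts over the group, overlap would be 4.71-fold lower than c-fos, with the c-fos counts taken as exact. Adjusted p-values were 0.715, 0.639 and 0.701 for c-fos against mCHerry, overlap against mCHerry and overlap against c-fos (edgeR with no filter).

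Dlx6os1 (ENSMUSG00000090063), the long non-coding RNA, had 7 counts in all, 3, 1 and 1 in mCHerry, 1, 0 and 1 in c-fos, and none in overlap. Every mCHerry library held it and no overlap library did. Set at 3 counts over the group, overlap would be 1.27-fold lower, which takes the 5 mCHerry counts as exact and does not bound a difference. Dlx6os2, an unclassified transcript that overlaps Dlx6os1 on the same strand, had 3 counts in overlap 2 and 0 in every other library. Dlx6, a homeodomain gene on the opposite strand of the same locus, had 10, 3 and 7 counts in mCHerry and 0 in each of the other 6 libraries. All mCHerry libraries stood above the other 6 for 2.61% of the genes with at least 10 counts. Set at 3 counts over the group, Dlx6 would be 6.1-fold lower in c-fos and 5.06-fold lower in overlap than in mCHerry. The mCHerry counts are taken as exact there. Since use of strand is not stated, reads of Dlx6 and Dlx6os1 cannot be told apart with certainty either. Thus Dlx1 was counted mainly in c-fos, and Dlx6 in mCHerry alone.

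The genes of interneuron and central amygdala subtypes differed from one another in group order. Pvalb (ENSMUSG00000005716), the calcium-binding protein of fast-spiking interneurons, had 0, 5 and 2 counts in mCHerry, 0, 0 and 1 in c-fos, and 2, 14 and 13 in overlap. Levels were 0, 11.2 and 15.8 CPM in mCHerry, 0, 0 and 3.12 in c-fos, and 21.9, 53.8 and 45.9 in overlap. All overlap libraries stood above the other 6, but overlap 1 rested on 2 counts, under its floor. Means were 9.01 ± 8.14, 1.04 ± 1.80 and 40.5 ± 16.6 CPM. Pooled counts gave a ratio of overlap to mCHerry of 5.45 with a counting interval of 2.34 to 14.7. The ratio of overlap to c-fos was 34.9 with an interval of 5.79 to 1426, since c-fos held 1 count. Adjusted p-values were 0.674 and 0.701 (edgeR with no filter; unadjusted 0.0527 against c-fos).

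Prkcd (ENSMUSG00000021948), the kinase of a central amygdala population, had 13, 31 and 12 counts in mCHerry, 4, 11 and 27 in c-fos, and 1, 12 and 11 in overlap. Levels were 49.3, 69.5 and 94.9 CPM in mCHerry, 32.4, 34.2 and 84.4 in c-fos, and 11, 46.1 and 38.8 in overlap. The c-fos libraries overlapped both other groups. All overlap libraries lay below mCHerry with TMM and upper quartile scaling, but not with the other 3 scalings. Log2 fold changes against mCHerry were -0.47 ± 0.99 for c-fos and -1.08 ± 1.01 for overlap (adjusted p = 0.984 and 0.682, edgeR's quasi-likelihood test). Without c-fos 3 the first was -1.09. Prkcd, the member with the most counts, thus had fitted changes against mCHerry of the opposite sign to Slc32a1.

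Erbb4 (ENSMUSG00000062209), the neuregulin receptor that forebrain interneurons carry, had 0, 4 and 0 counts in mCHerry, 0, 6 and 2 in c-fos, and 8, 7 and 0 in overlap. Each group held a library at 0, so the groups overlapped. Mean levels were 2.99 ± 5.18, 8.31 ± 9.51 and 38.2 ± 44.9 CPM, and the log2 fold change of overlap over mCHerry was 3.21 ± 2.24 (adjusted p = 0.561, edgeR with no filter). It was 1.80 without overlap 1, 6.08 without mCHerry 2 and 1.39 without mCHerry 3 and overlap 1. Gm37735, an unclassified transcript within Erbb4 on the same strand, had 19, 0 and 46 counts in mCHerry, 9, 13 and 1 in c-fos, and 1, 14 and 0 in overlap, more in all than the 27 of Erbb4.

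Groups that did not overlap were few, and a scaling changed this for 1 gene, Prkcd. For c-fos above mCHerry they were 2 of the 9 genes, Slc32a1 and Dlx1, under 5 of 5 scalings, where 7.45% of the 18058 genes with at least 10 counts had this pattern. Overlap stood wholly above mCHerry for Pvalb, beside 4.1% of genes, and wholly below it for Dlx6os1, and for Prkcd under 2 of 5 scalings, beside 8.83%. Overlap stood above c-fos for Pvalb, beside 2.58%, and below c-fos for Gad2, beside 7.15%. With 8 members at 10 counts or more, Dlx6os1 being the exception, 1 or 2 genes are too few to set against such shares. No member had all 6 c-fos and overlap libraries above mCHerry, a pattern of 1.2% of genes, and Pvalb alone had overlap above both other groups, a pattern of 1.16%.

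Summed, the 9 genes stood at 118, 130 and 119 CPM in mCHerry, 438, 271 and 250 in c-fos, and 307, 184 and 190 in overlap. All 6 c-fos and overlap libraries were above the 3 mCHerry libraries. Means were 122 ± 6.92, 320 ± 103 and 227 ± 69.1 CPM, a 2.62-fold higher level in c-fos and a 1.86-fold higher level in overlap than in mCHerry. With mCHerry 3 and overlap 1 left out, the log2 ratios were 1.32 for c-fos and 0.55 for overlap in place of 1.39 and 0.90. The order was the same under the other scalings. The highest mCHerry and the lowest other library were 126 and 192 CPM with DESeq2 size factors, 137 and 159 with upper quartile scaling, 135 and 191 with the total count, and 116 and 239 when scaled on the 200 genes with most counts. That last scale shifted all genes by 0.35 in c-fos and 0.69 in overlap against mCHerry on the log2 scale. Since the genes were chosen with results of these data known, the sum carries no p.

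**Figure D2:**
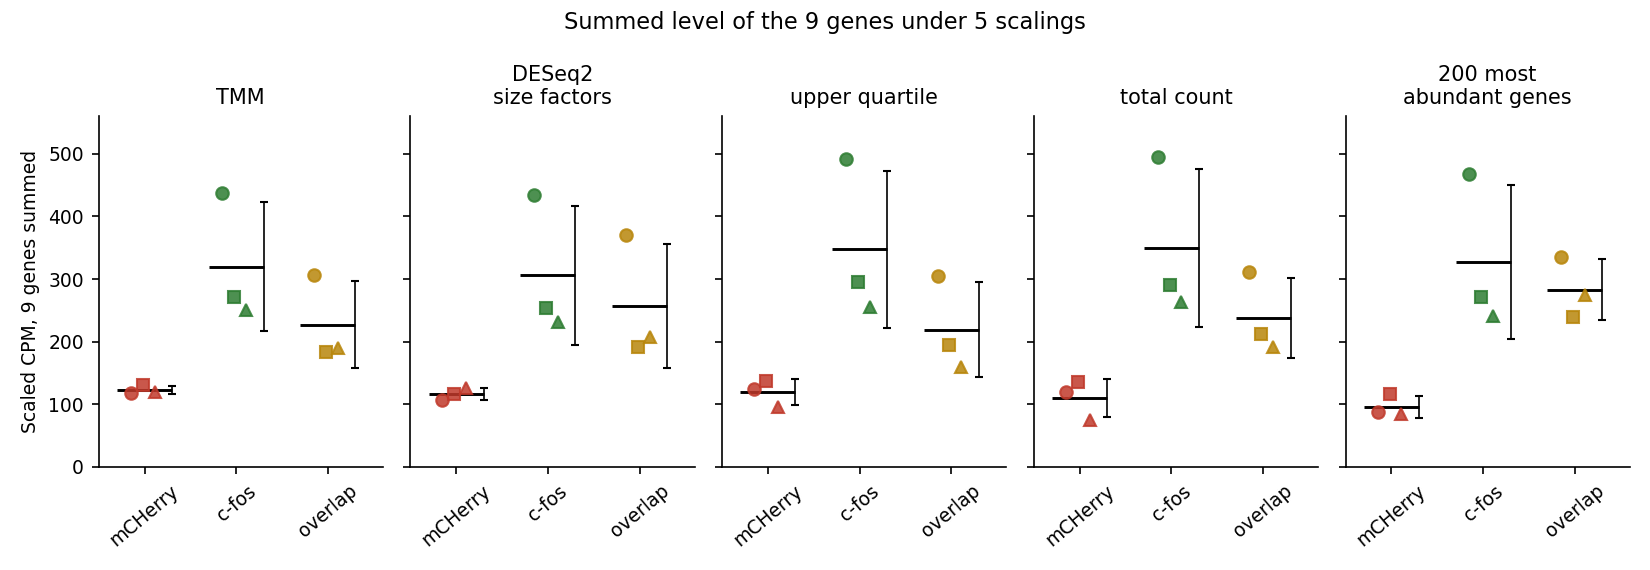
Summed level of the 9 genes in each library (y axis, scaled CPM) by group, with a panel for each of 5 scalings. Points are libraries, horizontal lines means and vertical bars SD over 3 libraries. In every panel the highest mCHerry library, 116 to 137 CPM, is below the lowest of the other 6, 159 to 239.

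The sum was made of different genes in different libraries. Prkcd gave 41.9%, 53.4% and 80% of the summed counts in the 3 mCHerry libraries. Slc32a1 gave 55.6%, 29.9% and 37.5% in c-fos, and Gad2 a further 25.3% in c-fos 2. In overlap 1 Slc32a1 held 57.1% and Erbb4 28.6%, in overlap 2 Dlx1 held 27.1% and Pvalb 29.2%, and in overlap 3 Gad1 held 55.6%. The c-fos libraries thus shared Slc32a1 as their leading gene, while the 3 overlap libraries had 3 different leading genes. Some leads were narrow. In mCHerry 1 Prkcd had 13 counts and Slc32a1 11. Slc32a1 had 26 counts beside 22 of Gad2 in c-fos 2, and 30 beside 27 of Prkcd in c-fos 3. In overlap 2 Pvalb, Dlx1 and Prkcd had 14, 13 and 12. The leads were wider in the other libraries. Leaving out any 1 gene kept the 6 libraries above mCHerry except for Gad1, without which overlap 3 stood at 84.6 CPM and the highest mCHerry library at 119. Without Prkcd the sums were 68.3, 60.6 and 23.7 CPM in mCHerry, 405, 237 and 166 in c-fos, and 296, 138 and 152 in overlap. Without Slc32a1 the highest mCHerry library was at 121 CPM and the lowest of the other 6 at 132.

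**Figure D3:**
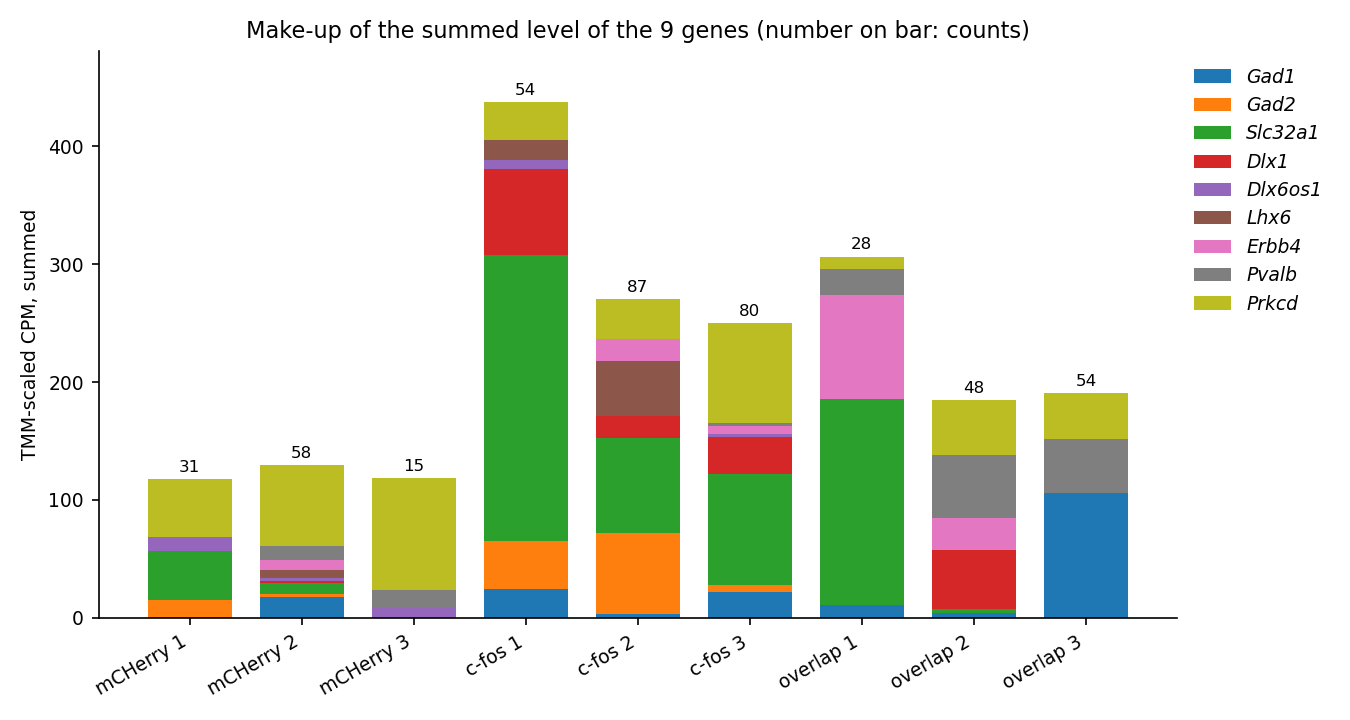
Summed level of the 9 genes in each library (y axis, TMM-scaled CPM), divided by gene, with the number of counts above each bar. Bars start at 0 and have no error because each is 1 library. The mCHerry bars, 118 to 130 CPM, are led by Prkcd and the c-fos bars by Slc32a1, and the 3 overlap bars have 3 different leading genes. Some of these leads are only a few counts.

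Set against other neuronal transcripts of the same library, which needs no scaling, the order was the same. Per 100 counts of 20 excitatory neuron genes, the 9 genes had 4.05, 3.88 and 4.6 counts in mCHerry, 27.4, 10.1 and 10.4 in c-fos, and 11.1, 9.25 and 10.6 in overlap. Per 100 counts of the 14 genes shared by most neurons they had 1.7, 1.84 and 1.85 in mCHerry, 10.4, 5.44 and 4.95 in c-fos, and 7.78, 4.05 and 5.79 in overlap. Both denominators were themselves lower outside mCHerry, with 2947 ± 390, 2231 ± 568 and 2183 ± 513 CPM for the excitatory genes and 6806 ± 347, 4739 ± 475 and 3931 ± 632 CPM for the neuronal genes in mCHerry, c-fos and overlap, and their part in the ratios was not tested. Without Prkcd or without Slc32a1 the ratios of all 6 libraries remained above mCHerry, for Slc32a1 by 4.76 against 4.6 per 100 excitatory counts.

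**Figure D4:**
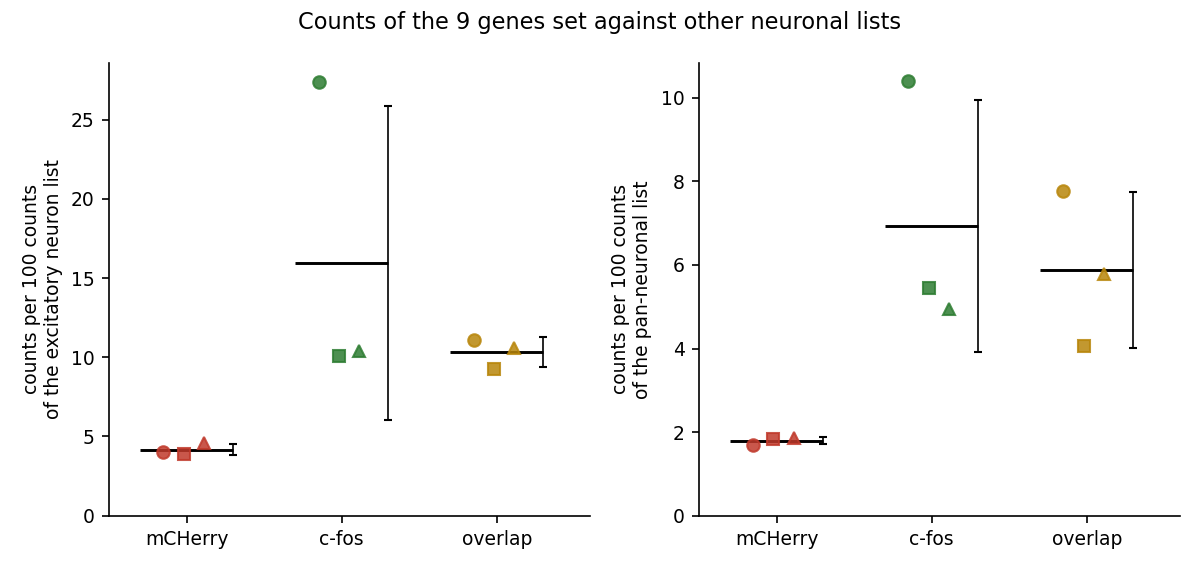
Counts of the 9 genes per 100 counts of the excitatory neuron list (left y axis) and of the list shared by most neurons (right y axis) by group. Points are libraries, horizontal lines means and vertical bars SD over 3 libraries. On the left mCHerry lies at 3.88 to 4.6 and the other 6 libraries at 9.25 to 27.4.

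Other genes of the inhibitory system were read from lists chosen with earlier results known, and none of their genes passed the test in the filtered fit in either direction. Of 10 genes of GABA uptake, breakdown and precursor supply, 3 were tested, with a median log2 fold change of 0.90 for c-fos and 1.23 for overlap against mCHerry, beside -0.01 and -0.05 over all genes. Over all 10 with no filter the medians were 0.41 and -0.08, so the higher value in overlap rests on the 3 tested genes. Slc38a1, a glutamine transporter, was at 1.43 ± 0.97 and 2.03 ± 0.98 (adjusted p = 0.812 and 0.376, edgeR's quasi-likelihood test). Of 20 further transcription factors of inhibitory lineages, 9 were tested, with medians of 0.14 and 0.36, 5 positive and 4 negative in each comparison, and over the 17 with a count medians were 0.22 and 0. Nr2f2, a nuclear receptor of caudal ganglionic eminence interneurons that other cells also carry, was at 850 ± 26.1 CPM in mCHerry, 355 ± 130 in c-fos and, for overlap, 336 ± 110 (adjusted p = 0.568 and 0.242). Its mCHerry libraries were all above the other 6, a pattern of 2.61% of the genes with at least 10 counts. Zeb2, a zinc finger factor of migrating interneurons and of glia, was at -0.99 ± 0.53 and -1.21 ± 0.53 on the log2 scale (adjusted p = 0.695 and 0.325). Of 26 interneuron subtype genes, 11 were tested, with medians of 0.03 and 0.66. Over the 21 with a count and no filter the medians were 0.66 and 0, the other order of the groups, and Vip and Npy were at 0 in every library. Nos1, the neuronal nitric oxide synthase, had 111 counts in mCHerry 3 and a log2 fold change of -2.43 for c-fos against mCHerry (adjusted p = 0.568).

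Of 22 genes of the central amygdala and intercalated cells, 8 were tested, with 7 positive and a median of 0.98 for c-fos and 5 positive and a median of 0.30 for overlap against mCHerry (0.58 and 0.18 over 21 genes with no filter). Tshz1, a transcription factor of intercalated cells, was at 32.4 ± 37.7 CPM in mCHerry, 157 ± 22.0 in c-fos and, for overlap, 371 ± 467, with log2 fold changes of 2.22 ± 1.12 and 3.44 ± 1.16 (adjusted p = 0.664 and 0.244). In the fit with no filter Tshz1 was called for overlap against mCHerry (log2 fold change 3.45, adjusted p = 0.0149), the only gene of that list called there, beside 1.32% of all genes. Its counts were 20, 6 and 1 in mCHerry and 82, 53 and 3 in overlap. Overlap 3 was thus at the floor of 3 counts and below mCHerry 1. Foxp2, also found in intercalated cells, was at 54.7 ± 20.7, 192 ± 64.6 and 71.0 ± 42.6 CPM (adjusted p = 0.6 for c-fos). Pde10a of the same list had log2 fold changes against mCHerry of 0.03 ± 0.77 for c-fos and -1.15 ± 0.79 for overlap. Those of Meis2 were 1.33 ± 1.01 and 0.66 ± 1.02. Of the inhibitory postsynapse genes 8 were tested, with medians of -0.43 for c-fos and -0.97 for overlap (0.05 and -0.97 over 10 genes with no filter). With no filter Lhfpl4, which encodes a partner of GABA-A receptors, was called lower in overlap than in mCHerry (log2 fold change -2.02, adjusted p = 0.0207), a call that the filtered fit did not make (adjusted p = 0.177).

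The summed markers of other cell types overlapped between all groups, while some single markers did not. Summed astrocyte markers were 918 to 1249 CPM in mCHerry, 851 to 1472 in c-fos and, for overlap, 779 to 1390. Oligodendrocyte markers were 3354 to 5975, 2715 to 3991 and 2478 to 4567 CPM, microglial markers 117 to 285, 150 to 422 and 196 to 504, and vascular markers 269 to 476, 243 to 762 and 230 to 459. Ntsr2, Opalin and P2ry12 were at 0 in every library. Of the 37 markers on these 4 lists with at least 10 counts, 3 stood wholly above mCHerry in overlap, Csf1r, C1qc and Mag. Wholly below it stood 6, Slc1a2, Aldh1l1, Pdgfra, Pecam1, Slco1a4 and Pdgfrb. Over all genes with that many counts the shares were 4.1% above and 8.83% below. For c-fos 2 stood above mCHerry and 2 below, beside 7.45% and 5.36% of all such genes. Numbers this small are too few to set against these shares. Csf1r, a receptor of microglia, had 3, 1 and 0 counts in mCHerry, 4, 2 and 9 in c-fos, and 34, 9 and 25 in overlap, a log2 fold change of 4.91 ± 1.36 for overlap against mCHerry (adjusted p = 0.184, edgeR's quasi-likelihood test). Like Pvalb it was thus high in overlap, but most of the microglial list was not. For overlap against mCHerry 1 of its 3 tested genes was positive, with a median log2 fold change of -0.64. With no filter 3 of 10 were positive, with a median of -1.02. Slc1a2, an astrocyte glutamate transporter, stood at 473 ± 14.1 CPM in mCHerry, 394 ± 109 in c-fos and, for overlap, 290 ± 71.2, with a log2 fold change of -0.70 ± 0.46 for overlap (adjusted p = 0.532). Most of the astrocyte list did not share this lower level. For overlap against mCHerry 5 of its 7 tested genes were positive, with a median log2 fold change of 0.16. With no filter 7 of 11 were positive, also with a median of 0.16. The part of these cell type markers in the levels of the 9 genes was not tested.

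The genes whose pattern over the 9 libraries was most like the summed 9 genes, by Pearson correlation of log2(TMM-scaled CPM + 10) over 7957 other genes, were Gm43063 (r = 0.929), Zfp957 (0.925), Gm37219 (0.911), Gm44677 (0.902) and Gm16330 (0.897). They are a description over 9 libraries that share group, depth and scaling factors. Zfp957, a zinc finger gene and the only one of them annotated as coding a protein, stood at 3.79, 2.24 and 0 CPM in mCHerry, 40.5, 40.5 and 28.1 in c-fos, and 65.8, 15.4 and 17.6 in overlap.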

How the data were processed

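The table deposited by the authors gives raw counts, whole numbers for each gene in each library, that show no scaling. Trim Galore, STAR, UMI-tools, featureCounts and build mm9 were named, per the submitters' processing notes, and the sources used here give no version, order or setting. All columns matched a sample by name. Symbols came from a table of gene names, which covered 54723 of 54838 identifiers. GENCODE M21, of another build, served for gene types and overlaps only, and promoters are RefSeq sequences of GRCm38.p6.

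The counts of all 9 libraries were fitted together by edgeR 4.0.16 (R 4.3.3). TMM factors were used, and filterByExpr kept genes at its minimum of 10 counts. Quasi-likelihood tests were two-sided and adjusted by Benjamini-Hochberg, with calls at 0.05. The biological coefficient of variation was 0.857. Members that failed the filter were read from a fit with no filter over 26012 genes. Standard errors follow from each fold change and F statistic. Fitted folds of genes with a group of 3 counts or fewer depend on the prior count, so pooled ratios with exact binomial 95% intervals are given for them. Where a group was at 0, a fold with that group set at 3 counts is given instead. Such a fold takes the counts of the other group as exact, so it is not a full bound. The fit was tested on simulated data. Alternatives were 4 other scalings, DESeq2 1.42.0, 2 other filters, a fit of only the groups compared, a replicate block, and left-out libraries. The labels do not say whether replicate numbers pair the libraries. Correlations of same-numbered libraries' deviations ran from -0.027 to 0.038, and those of differently numbered libraries from -0.036 to 0.028. With counts this sparse, such values cannot show or exclude a pairing.

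The members and lists were chosen with earlier results of these data known. Named were all members, the genes overlapping them that had at least 3 counts in all, and the 5 genes most like the summed members. From each other list up to 4 genes with the highest mean level were named (the text prints some of these, selected after their values were seen). Vip, Npy and the genes listed at 0 were named after their values were seen.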

Additional observations from a re-analysis of the deposited data

How the results depend on the processing

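No member passed an adjusted p under 0.05 in any of 529 alternative values, 522 of which kept the sign of the log2 fold change, 1 was at 0 (Lhx6 in overlap against mCHerry without mCHerry 2), and the lowest adjusted p was 0.329. Combined values for c-fos and overlap against mCHerry were taken only for Gad1, Slc32a1, Erbb4 and Prkcd, whose groups all held more than 3 counts. Signs turned in 6 cases. Slc32a1 in overlap against mCHerry went to -2.99 without overlap 1 (adjusted p = 0.433, edgeR) and to -3.49 without mCHerry 3 and overlap 1, and its combined value to -0.05 and -0.54. Dlx1 in overlap against mCHerry went to -1.59 without overlap 2, where it compares 0 counts with 1 and depends on the prior count. Gad1 in overlap against c-fos went to -1.18 without overlap 3. Over all libraries left out singly, these results ran from -2.99 to 3.10, -0.05 to 3.76, -1.59 to 5.02 and -1.18 to 1.83 in that order. Overlap 1 held 16 of 17 overlap counts of Slc32a1, overlap 2 all 13 of Dlx1 and overlap 3 30 of 32 of Gad1.

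Numbers of genes called over the whole table moved widely. For c-fos against mCHerry 0 became 1 with upper quartile or total count scaling, the 200 most abundant genes, the stricter filter of 30 counts, or mCHerry 3 and overlap 1 left out, 3 with DESeq2 and 258 with no filter. For overlap against mCHerry 2 became 0 with each other scaling, the stricter filter, 2 groups only, or those libraries left out, 180 with DESeq2 and 344 with no filter. For overlap against c-fos 0 became 6 with DESeq2, 1 with 2 groups only or those libraries left out, and 44 with no filter. For both groups combined 0 became 83 with DESeq2 and 495 with no filter. For any difference 3 became 1 with size factors of DESeq2, the upper quartile, the 200 most abundant genes, the stricter filter or those libraries left out, 76 with DESeq2 and 519 with no filter. Leaving out 1 library gave 0 to 1 for c-fos against mCHerry (1 without mCHerry 3), 2 to 20 for overlap against mCHerry (16, 5 and 20 without mCHerry 1, 2 and 3), 0 to 9 for overlap against c-fos (1 without mCHerry 1, 9 without mCHerry 3), 0 to 181 combined (181 and 161 without mCHerry 1 and 2) and 0 to 52 for any difference (52, 20 and 21 without mCHerry 1, 2 and 3, 0 without c-fos 2, 5 without overlap 2). The replicate block gave 0 calls for c-fos against mCHerry, 10 for overlap against mCHerry, 3 for overlap against c-fos, 7 combined and 10 for any difference. With it Slc32a1 stood at 3.85 (adjusted p = 0.835, edgeR) for c-fos against mCHerry. Whether the numbers pair the libraries is not stated.

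The log2 ratio of the summed 9 genes moved with the scale of the 200 most abundant genes to 1.56 for overlap against mCHerry and 1.67 combined, from 0.90 and 1.16. Leaving out 1 library gave 1.08 to 1.51 for c-fos and 0.60 to 0.97 for overlap against mCHerry, -0.78 to -0.24 for overlap against c-fos, and 0.94 to 1.22 combined. Depth is a limit, since 7 of the 9 genes failed the filter on low counts, and so is the spread between libraries.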

Other observations

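Some subtype genes that the naming rule does not reach were picked after their values were seen. Crhbp and Tac1 had 28 and 17 counts in c-fos 2, the library that also held most Gad2 and Lhx6 counts. Sst, the peptide of another interneuron class, had 4, 0 and 3 counts in mCHerry, 0, 4 and 29 in c-fos, and 9, 0 and 0 in overlap, with means of 34.4 CPM in c-fos and 32.9 in overlap. Npas1 and Isl1 had 61 and 51 counts in overlap 3, the library with most Gad1, and 36 and 19 in mCHerry 2. Sp9, a transcription factor of inhibitory precursors, had 0 counts in 5 libraries and 4, 9 and 5 in c-fos and 4 in overlap 2, which are the libraries with more than 1 Dlx1 count.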
